A study of Rattus norvegicus with 28 samples.

Results

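Gene expression across the estrous cycle was examined in the brains of 12 female rats of the strain SHR/OlaIpcv, with 4 animals in each of pre-estrus, estrus and post-estrus, among the 28 libraries of a study that also holds 12 females of the strain BN-Lx/Cub and 2 males of each strain. The members were taken by strain and stage from the sample labels and were compared among themselves, first with and then without an adjustment for 2 highly abundant RNAs. The study asked how sex and cycle stage act on brain RNA in different genotypes. SHR/OlaIpcv is an inbred, spontaneously hypertensive strain. All 12 SHR females share the genotype and the tissue, whole brain, and the labels name no treatment and no age. The labels' extraction text mentions male rats, whereas the label of every sample used here gives female. A library was treated as 1 animal.

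The estrous cycle is driven by the hypothalamus, the pituitary and the ovary. Estradiol rises before estrus and prompts the surge of luteinizing hormone that leads to ovulation, and progesterone follows. Receptors for these hormones are found in many brain regions, so a whole brain mixes regions that respond with regions that may not. In such a sample, fewer cells of a type and less RNA per cell cannot be told apart. Libraries made from total RNA after removal of ribosomal RNA also hold other abundant RNAs, and when a few of these take a varying part of the reads, the part left for all other genes varies with them.

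Totals ran from 45382687 to 72654055 expected counts per library, with a mean of 59680580 ± 8714301 (SD, n = 12). An expected count is the number of reads assigned to a gene, with reads that fit several genes divided between them. Between 18111 and 20104 genes had at least 1 count, and synthetic spike-in RNAs made up 1.46% to 6.05% of each library. After a filter on low counts, 16814 genes were tested, of which 13970 had a mean of at least 1 CPM (counts scaled to library size, the unit of all levels given below). Post-estrus replicate 13 stood apart from the other 11 libraries: its score on the first principal component was -80.7, against -34.6 to 36.7 in the others. For the counts of genes called, the standard errors and the share coefficients, values without it are given as well. The deposited files give Ensembl identifiers without gene names, so genes appear by identifier, their roles are not described, and markers of brain cell types could not be looked up.

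The most abundant RNA, ENSRNOG00000043866, listed at 1571 bases, took 23.1% ± 4.40 of all gene counts (SD, n = 12), and its share varied within every stage. At pre-estrus it took 19.95%, 17.7%, 26.1% and 27.7% of the gene counts in replicates 8, 10, 11 and 12. At estrus it took 26.8%, 22.7%, 27.3% and 22.0% in replicates 5, 6, 9 and 11. At post-estrus it took 25.1%, 26.1%, 23.3% and 13.2% in replicates 6, 8, 12 and 13. The lowest value was that of post-estrus replicate 13, and the 3 stages overlapped. Means were 22.9% ± 4.78 at pre-estrus, 24.7% ± 2.75 at estrus and 21.9% ± 5.94 at post-estrus (SD, n = 4 each). The log2 share did not pass a test for a difference between the stages (exact permutation test over 34650 arrangements, p = 0.722, adjusted over the 2 shares 0.722).

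The second RNA, ENSRNOG00000058083, listed at 300 bases, took 3.34%, 5.45%, 3.50% and 2.54% of the gene counts in pre-estrus replicates 8, 10, 11 and 12. It took 3.07%, 4.32%, 2.92% and 4.09% in estrus replicates 5, 6, 9 and 11. It took 3.27%, 4.43%, 3.69% and 5.83% in post-estrus replicates 6, 8, 12 and 13. Post-estrus replicate 13, lowest for the first RNA, was highest for this one, and the stages again overlapped. The means were 3.71% ± 1.24, 3.60% ± 0.705 and 4.30% ± 1.12 (SD, n = 4 each), and the exact permutation test over the stages gave p = 0.588 (adjusted 0.722). The pairwise tests of both shares gave exact permutation p-values from 0.343 to 1, where 4 against 4 libraries can reach 0.0286. A second entry of the same length, ENSRNOG00000061096, held counts identical to those of ENSRNOG00000058083 in every library, so the level of either entry on its own is uncertain.

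**Figure D1:**
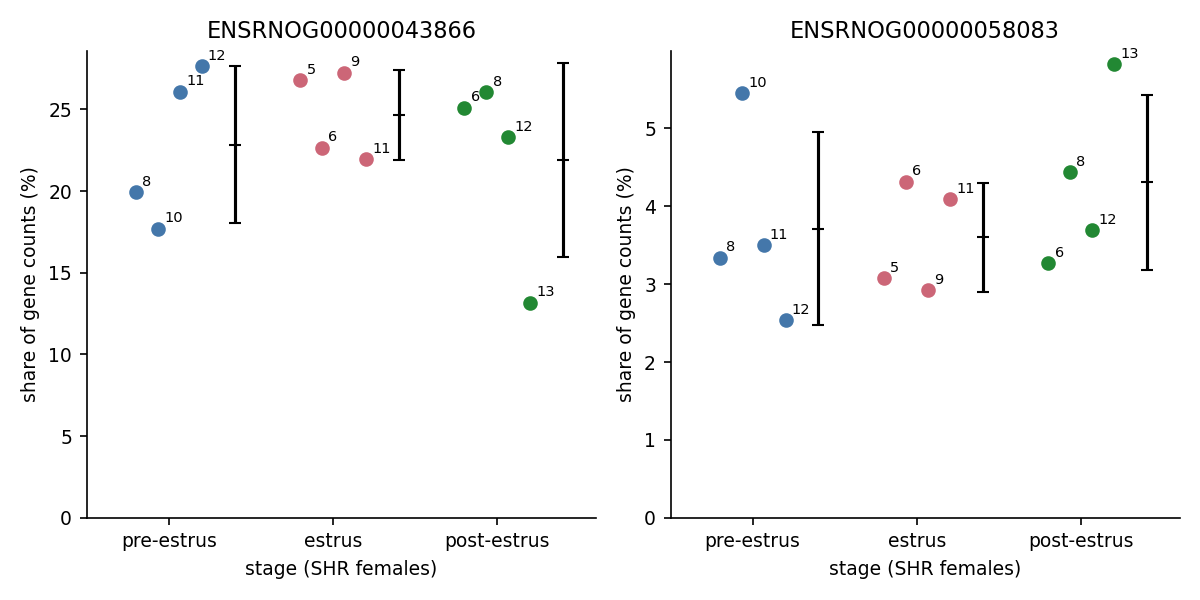
Share of gene counts (%, vertical axes from 0) taken by ENSRNOG00000043866 and ENSRNOG00000058083 in each SHR female by stage. Points are libraries with their replicate numbers, and bars show the mean and SD of 4 libraries; post-estrus replicate 13 is lowest at 13.2% in one panel and highest at 5.83% in the other.

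The share of ENSRNOG00000043866 ordered the libraries almost as the first principal component of the transcriptome did. Of the variance in log2 CPM, 33.8% fell on the first principal component, whose correlation with the log2 share was r = 0.946 (Spearman's rho = 0.888, n = 12 libraries, permutation p = 9e-05, adjusted over 5 relations 0.00045; permutation p for rho = 0.00033). Without post-estrus replicate 13 and pre-estrus replicate 10, the 2 libraries farthest from the median share, r was 0.945 (permutation p = 0.00043, n = 10). The sample descriptions end in b35 or b37, a suffix whose meaning is not stated, and within the 7 b35 libraries r was 0.973 (permutation p = 0.00595). The 5 b37 libraries were too few for a value. ENSRNOG00000043866 itself is among the genes behind the component.

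The 2 log2 shares were related inversely, with r = -0.799 (rho = -0.79, n = 12, permutation p = 0.00107, adjusted 0.00267; for rho p = 0.00346). Without the same 2 libraries r was -0.48 (permutation p = 0.161), so the relation was weaker and did not pass the test. Without post-estrus replicate 13 alone r was -0.705. In the 7 b35 libraries, which include both of those left out, r was -0.802 (permutation p = 0.0214). The spike-in percentage also fell with the first share, at r = -0.684 (rho = -0.559, n = 12, permutation p = 0.0148, adjusted 0.0246; for rho p = 0.0628). Without the 2 libraries r was -0.377 (permutation p = 0.283), so this relation too was weaker and did not pass the test. Within b35 it was -0.748 (permutation p = 0.0526). The total count did not pass the test (r = -0.515, rho = -0.434, permutation p = 0.0811 and 0.161, adjusted 0.101 for r; -0.443 without the 2 libraries and -0.628 within b35). The number of genes detected did not pass it either (r = 0.336, rho = 0.0559, permutation p = 0.274 and 0.87, adjusted 0.274 for r; -0.255 without the 2 libraries and 0.268 within b35).

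**Figure D2:**
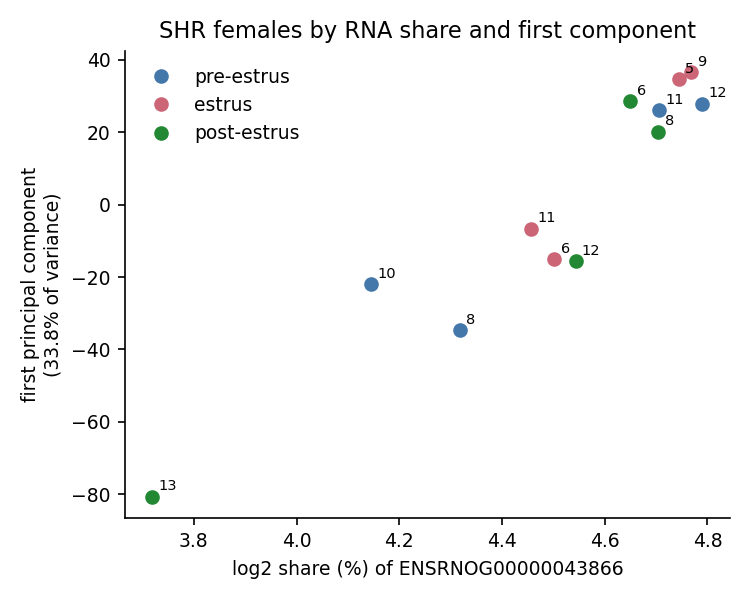
First principal component of log2 CPM (vertical axis, score) against the log2 share in percent of ENSRNOG00000043866 (horizontal axis) in the 12 SHR females, coloured by stage and marked with replicate numbers. Libraries of all 3 stages lie along 1 line (r = 0.946), with post-estrus replicate 13 at its lower end at -80.7.

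In the model with 3 stages and both log2 shares, 1775 of 16812 genes (10.6%) were called for the share of ENSRNOG00000043866 at an adjusted p under 0.05 (edgeR quasi-likelihood test with Benjamini-Hochberg adjustment). Of these, 1212 were called higher with the share and 563 lower, each at a given stage and a given value of the other share. A gene called higher thus need not be highest in the libraries with the highest share. The median coefficient, in log2 expression per doubling of the share, was 1.61 among the genes called higher, -0.95 among those called lower and -0.03 over all genes. The 2 covariate RNAs are not counted. Both shares and all gene levels come from the same counts, so the shares are not an independent measurement of the samples.

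Single libraries carried much of this count. It was 373 without post-estrus replicate 8 (344 higher, 29 lower), 619 without pre-estrus replicate 8 (541 and 78) and 752 without pre-estrus replicate 11 (650 and 102). Without post-estrus replicate 13, the library that stands apart, 1201 genes were called, of which 644 were higher and 557 lower, and 847 of the 1201 were among the 1775. The split also depended on the method: limma called 1770 higher and 1391 lower, and a scaling that left out the 8 most abundant genes called 1266 higher and 352 lower. More genes were called higher than lower in each of these fits, all of which held both shares. With the share of ENSRNOG00000043866 alone beside the stages the split was closer to even, at 3457 higher and 3259 lower.

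By listed length, genes at both ends were called higher more often than those between. Of the 393 genes under 300 bases, 45 (11.5%) were called higher and 0 lower, and of the 2745 genes of 4000 bases or more, 303 (11.0%) were called higher and 132 (4.81%) lower. Between 1000 and 2000 bases, 5.71% were called higher and 2.64% lower. The median standard error of the coefficient was 1.33 under 300 bases, 0.304 between 1000 and 2000 and 0.245 at 4000 or more. A coefficient of a given size was therefore not equally likely to be called in each bin. Genes called lower were longer and more abundant than the rest, with a median length of 2740 bases and a median of 27.7 CPM, against 2260.5 bases and 10.5 CPM among those called higher and 2084 bases and 10.6 CPM among those not called. The excess among short genes depended on which library was left out. Without post-estrus replicate 13, 7 of 425 genes under 300 bases (1.65%) were called higher, against 3.84% of longer genes. The values were 2.22% and 2.02% without post-estrus replicate 8, and 3.51% and 3.17% without pre-estrus replicate 8. Without pre-estrus replicate 11 the excess stayed, at 11.2% and 3.64%. No other library was left out for this comparison by length, and the longest genes were not examined in this way.

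**Figure D3:**
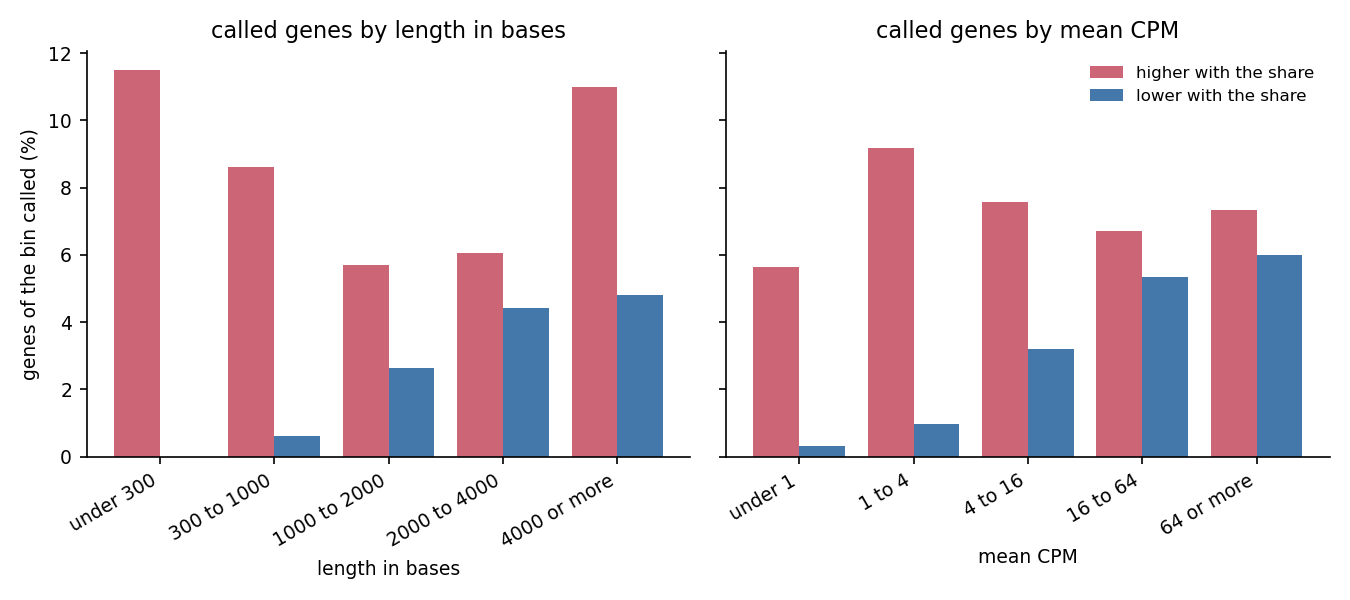
Percentage of tested genes called higher or lower with the log2 share of ENSRNOG00000043866 in bins of listed length (left) and mean CPM (right), over all 12 SHR females. Genes under 300 bases were called higher in 11.5% and never lower, and calls in the lower direction were most frequent (5.99%) at 64 CPM or more.

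Of the genes called for this share that averaged 1 CPM or more, those with the largest positive coefficients were ENSRNOG00000061984 and ENSRNOG00000047991. ENSRNOG00000061984, listed at 1076 bases, was at 1.30, 2.63, 5.73 and 6.11 CPM in pre-estrus replicates 8, 10, 11 and 12, at 5.63, 3.29, 6.59 and 2.76 CPM in estrus replicates 5, 6, 9 and 11, and at 4.33, 4.49, 1.40 and 0 CPM in post-estrus replicates 6, 8, 12 and 13. Its coefficient was 6.46 ± 1.35 (SE; edgeR, adjusted p = 0.0212), and the library with no count was the one with the lowest share. Without post-estrus replicate 13 the coefficient was 4.64 (edgeR, adjusted p = 0.0431), and the call was lost without post-estrus replicate 8 (0.104) or pre-estrus replicate 8 (0.102). ENSRNOG00000047991, listed at 70 bases, was at 57.1 CPM in pre-estrus replicate 10 and 57.7 CPM in post-estrus replicate 8, and at 3.40 to 15.2 CPM in the other 10 libraries. Its coefficient was 6.24 ± 1.36 (edgeR, adjusted p = 0.0313) although pre-estrus replicate 10 had the second lowest share. That library had a high share of ENSRNOG00000058083, which is also a term of the model. The call of ENSRNOG00000047991 was lost without post-estrus replicate 13 (coefficient 6.67; edgeR, adjusted p = 0.141), post-estrus replicate 8 (0.276), pre-estrus replicate 8 (0.107) or post-estrus replicate 6 (0.0516).

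The largest negative coefficients among the called genes were those of ENSRNOG00000052925, listed at 4298.73 bases, and ENSRNOG00000004346, listed at 7313 bases. ENSRNOG00000052925 was at 30.2, 13.8, 11.2 and 17.2 CPM at pre-estrus, at 10.5, 18.0, 18.9 and 18.7 CPM at estrus and at 18.0, 11.2, 29.4 and 34.7 CPM at post-estrus, in the same order of replicates. ENSRNOG00000004346 was at 9.16, 6.73, 3.18 and 3.58 CPM at pre-estrus, at 2.99, 4.55, 3.78 and 4.86 CPM at estrus and at 3.90, 4.18, 8.07 and 12.7 CPM at post-estrus. Both were highest in post-estrus replicate 13, and the ranges of the stages overlapped. The coefficients were -2.50 ± 0.56 and -2.24 ± 0.48 (SE; edgeR, adjusted p = 0.0244 and 0.0139). Without post-estrus replicate 13 they were -3.40 and -3.33 (adjusted p = 0.039 and 0.017). Both calls were lost without post-estrus replicate 8 (edgeR, adjusted p = 0.177 and 0.101), pre-estrus replicate 8 (0.123 and 0.0661) or pre-estrus replicate 11 (0.0856 and 0.0555), and that of ENSRNOG00000052925 also without pre-estrus replicate 10 (0.0519).

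For the share of ENSRNOG00000058083, 8 of 16812 genes (0.0476%) were called, 7 higher and 1 lower, and 1 of the 7 is the entry with identical counts. ENSRNOG00000053946 was at 4.11 CPM in post-estrus replicate 8 and between 0.461 and 2.51 CPM in the other libraries, with a coefficient of 4.29 ± 0.49 (SE; edgeR, adjusted p = 0.00302). ENSRNOG00000053534, listed at 128 bases, was highest in pre-estrus replicate 10 at 6.96 CPM and in post-estrus replicate 8 at 4.88 CPM, with a coefficient of 4.12 ± 0.61 (edgeR, adjusted p = 0.0463). Without post-estrus replicate 13 the coefficients were 4.22 and 3.47 (adjusted p = 0.0164 and 0.0255), and without post-estrus replicate 8 both calls were lost (adjusted p = 0.14 and 0.438). ENSRNOG00000053534 kept its call in 9 of 18 alternatives. It was lost without pre-estrus replicate 10 (edgeR, adjusted p = 0.311) or 12 (0.17), estrus replicate 6 (0.0826) or 11 (0.0653) or post-estrus replicate 12 (0.0774), with DESeq2 size factors (0.0509), with scaling that left out the 8 most abundant genes (0.0518) and over genes of at least 1 CPM (0.0578).

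Single libraries also moved the number of genes called for the share of ENSRNOG00000058083. The count was 7 without post-estrus replicate 13, 2 without post-estrus replicate 8 and 20 without post-estrus replicate 6. It was 3 without pre-estrus replicate 12, 4 without estrus replicate 11, estrus replicate 6 or pre-estrus replicate 10, 14 without pre-estrus replicate 11 and 19 without estrus replicate 5. Entered alone beside the stages, without the other share, the first share was called for 6716 genes (3457 higher, 3259 lower). The second, entered in the same way, was called for 2609 (1431 higher, 1178 lower).

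The adjustment narrowed the errors of the stage differences. In the 13970 genes that averaged 1 CPM or more, the log2 fold change had a median standard error of 0.114 with the shares and 0.150 without them between estrus and pre-estrus, 0.115 and 0.150 between post-estrus and estrus, and 0.116 and 0.150 between post-estrus and pre-estrus. The error was smaller with the shares for 88.1%, 86.7% and 84.9% of the genes. The common biological coefficient of variation is the relative spread between animals that a model leaves over. It was 0.247 without the shares, where it is the spread within stages. With the shares it was 0.170, the spread left after their fitted effect was taken out. The residual degrees of freedom went from 9 without the shares to 7 with them. Without post-estrus replicate 13 the median errors were 0.117 with and 0.141 without the shares in the first of these comparisons, 0.118 and 0.152 in the next, and 0.135 and 0.152 in the last.

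**Figure D4:**
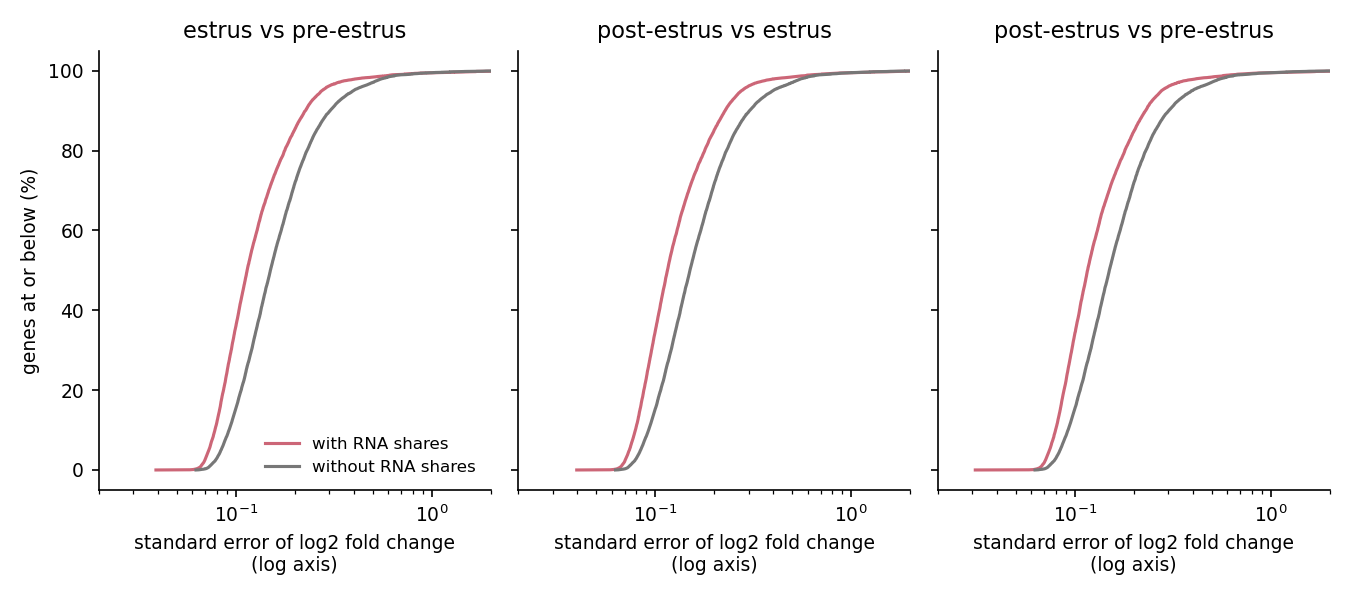
Cumulative percentage of the 13970 genes that averaged 1 CPM or more (vertical axis) by the standard error of their log2 fold change between stages (horizontal log axis), in the fits with and without the 2 RNA shares. In all 3 comparisons the curve with the shares lies to the left over most of its length, with medians of 0.114 to 0.116 against 0.150.

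With these errors, stage differences of most genes were bounded closely. The 95% interval lay wholly within a 1.5-fold difference for 84.7% of these genes between estrus and pre-estrus, for 85.5% between post-estrus and estrus and for 84.4% between post-estrus and pre-estrus, against 74.3%, 69.7% and 76.4% without the shares. It lay within a 2-fold difference for 95.9%, 96.9% and 96.2% with the shares. The median absolute log2 fold change with the shares was 0.07 in each comparison. These intervals hold for single genes and were not adjusted for their number. They cover the whole brain, so a difference within 1 region can be larger than the bound.

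Over all 3 stages, 2 of 16814 genes (0.0119%) were called with the shares and 0 (0%) without them. At an unadjusted p under 0.05 there were 381 genes (2.27%) with the shares and 134 (0.797%) without them, and 85 genes were on both lists, 22.3% of the first and 63.4% of the second. Of the 381, 136 (35.7%) were also called for the share of ENSRNOG00000043866, as were 2 (1.49%) of the 134, beside 10.6% of all genes. Both tests in the model with the shares use the same residual spread of each gene, so the lists are not independent. Without the shares, limma called 2 genes and DESeq2 3. With the shares, limma called 4 and DESeq2 9. Counts this small moved with single libraries: with the shares the count was 0 without estrus replicate 11 or pre-estrus replicate 8, 10 or 11, 1 without estrus replicate 6, 3 without post-estrus replicate 6, 4 without estrus replicate 5 or 9 or post-estrus replicate 8 or 13, and 5 without post-estrus replicate 12.

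Between estrus and pre-estrus, 0 of 16814 genes (0%) were called by edgeR in either fit. At an unadjusted p under 0.05 there were 558 genes (3.32%) with the shares and 176 (1.05%) without them, of which 137 were on both lists. DESeq2 called 6 genes in either fit and limma 0. With the shares, edgeR called 2 genes when estrus replicate 5 or 9 or post-estrus replicate 8 was left out, 1 when pre-estrus replicate 12 or post-estrus replicate 6, 12 or 13 was, and 0 when any other library was.

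The genes of at least 1 CPM with the smallest unadjusted p between estrus and pre-estrus are given by their values, since none was called (edgeR, adjusted p = 1 for each). ENSRNOG00000017725 was at 6.12, 4.30, 4.75 and 5.35 CPM in pre-estrus replicates 8, 10, 11 and 12 and at 6.25, 5.90, 7.11 and 6.41 CPM in estrus replicates 5, 6, 9 and 11. The groups overlapped in 1 library each, and the log2 fold change was 0.41 ± 0.11 with the shares and 0.32 ± 0.13 without them (SE). ENSRNOG00000021090 was at 48.6, 44.0, 33.0 and 36.1 CPM at pre-estrus and at 42.7, 52.4, 43.9 and 44.5 CPM at estrus. Its log2 fold change was 0.32 ± 0.09 with the shares and 0.18 ± 0.19 without them, and the groups overlapped.

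In the other direction, ENSRNOG00000027787 was at 1.78, 4.33, 2.47 and 1.83 CPM at pre-estrus and at 1.40, 1.67, 0.729 and 1.55 CPM at estrus. All 4 pre-estrus libraries lay above all 4 estrus libraries, with a log2 fold change of -1.25 ± 0.27 with the shares and -0.96 ± 0.43 without them (SE; edgeR, adjusted p = 1 in both). DESeq2 with the shares called ENSRNOG00000027787 (adjusted p = 0.0332) but not ENSRNOG00000048750 (0.0643). ENSRNOG00000048750 was at 4.71, 5.12, 13.9 and 6.13 CPM at pre-estrus and at 5.48, 4.53, 6.18 and 5.12 CPM at estrus. Apart from pre-estrus replicate 11 the groups covered the same range, and the log2 fold change was -0.78 ± 0.17 with the shares and -0.48 ± 0.47 without them. As the genes were picked for their small p, the separation of the stages for ENSRNOG00000027787 adds no evidence.

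Between post-estrus and estrus, 2 of 16814 genes (0.0119%) were called with the shares, 1 higher and 1 lower at post-estrus, and 1 (0.00595%) was called without them, lower at post-estrus. At an unadjusted p under 0.05 there were 375 genes (2.23%) with the shares and 318 (1.89%) without them, and 176 were on both lists. Both called genes had a mean under 1 CPM. Between post-estrus and pre-estrus, 1 gene (0.00595%) was called in each fit, lower at post-estrus. There, 433 genes (2.58%) had an unadjusted p under 0.05 with the shares and 126 (0.749%) without them, and 84 were on both lists. In every stage test of both fits, such genes were a smaller fraction than 0.05 of those tested. That fraction is what the threshold picks out on average without any stage effect. The longer lists with the shares are therefore no gain in stage differences by themselves.

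Single libraries moved these counts too. For post-estrus against estrus with the shares, 0 genes were called without estrus replicate 5 or 11, 1 without estrus replicate 6 or 9, pre-estrus replicate 10 or 11 or post-estrus replicate 12, and 4 without post-estrus replicate 8 or 13. For post-estrus against pre-estrus with the shares, 0 genes were called without pre-estrus replicate 11, 2 without pre-estrus replicate 10, 3 without estrus replicate 5 or 9 or post-estrus replicate 8 or 13, and 5 without post-estrus replicate 12. In the fit without the shares, 1 gene was still called between post-estrus and estrus without estrus replicate 6, pre-estrus replicate 8 or 11 or post-estrus replicate 13, and between post-estrus and pre-estrus without estrus replicate 6. Without any other single library, 0 genes were called there.

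The gene called lower in both comparisons and in both fits was ENSRNOG00000019566, listed at 1335 bases. It had 27, 34, 48 and 45 counts in pre-estrus replicates 8, 10, 11 and 12, 42, 21, 34 and 55 counts in estrus replicates 5, 6, 9 and 11, and 0 counts in each of the 4 post-estrus libraries. No post-estrus library overlapped the others. Set against a floor of 3 counts per library, its level was at least 7.24-fold lower at post-estrus than in the lowest estrus library and at least 7.69-fold lower than in the lowest pre-estrus library. The adjusted p was 0.0104 for post-estrus against estrus and 0.0104 against pre-estrus with the shares, and 0.0256 and 0.0333 without them (edgeR). With the description number as a block the adjusted p was 0.0477 against estrus and 0.0982 against pre-estrus, where the call was lost (edgeR, with the shares). Post-estrus replicate 13, at 0, carries the same number in its description as the 4 pre-estrus libraries, which had 27 to 48 counts, and as estrus replicate 6, which had 21.

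The call of ENSRNOG00000019566 depended on single libraries at this depth. With the shares, the adjusted p (edgeR) for post-estrus against estrus was 0.0614 without estrus replicate 11 and 0.0537 without estrus replicate 5, and for post-estrus against pre-estrus 0.108 without pre-estrus replicate 11. It was between 0.00475 and 0.0433 in the other leave-one-out fits. Over the alternatives that kept all 12 libraries, the value ran from 7.7e-08 with DESeq2 for post-estrus against estrus, and from 4.17e-08 against pre-estrus, to 1 for both in a fit of all 28 libraries, where each library of the study adds to the estimate of spread. Within the 7 b35 libraries it was 1 for post-estrus against estrus and 0.645 against pre-estrus, both with the shares. The 5 b37 libraries hold a lone post-estrus library, assumed to vary like the others, and could be fitted only without the shares, which gave 0.0752 and 0.0215. In the 16 libraries that are not SHR females it was at 0 in 4, with a median of 7 and a highest count of 78, so counts of 0 also occurred outside the post-estrus SHR females.

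ENSRNOG00000046272, listed at 1305 bases, was called higher at post-estrus than at estrus only in the fit with the shares, and was named after its values were seen, as its mean is under 1 CPM. It had 35, 0, 0 and 18 counts in pre-estrus replicates 8, 10, 11 and 12, 0 counts in all 4 estrus libraries, and 57, 0, 66 and 59 counts in post-estrus replicates 6, 8, 12 and 13. Post-estrus replicate 8 lay with the estrus libraries at 0. ENSRNOG00000046272 was itself called for both shares, with coefficients of -12.4 for ENSRNOG00000043866 and -14.3 for ENSRNOG00000058083 (edgeR, adjusted p = 0.00308 and 0.0463). Its stage difference with the shares thus depends on these fitted slopes. The adjusted p was 0.047 with the shares and 0.978 without them (edgeR). It was between 0.0336 and 0.154 when single libraries were left out, and passed the threshold in 4 of those 12 fits. Among the 16 libraries outside the SHR females it was at 0 in 8, and its highest count was 355.

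**Figure D5:**
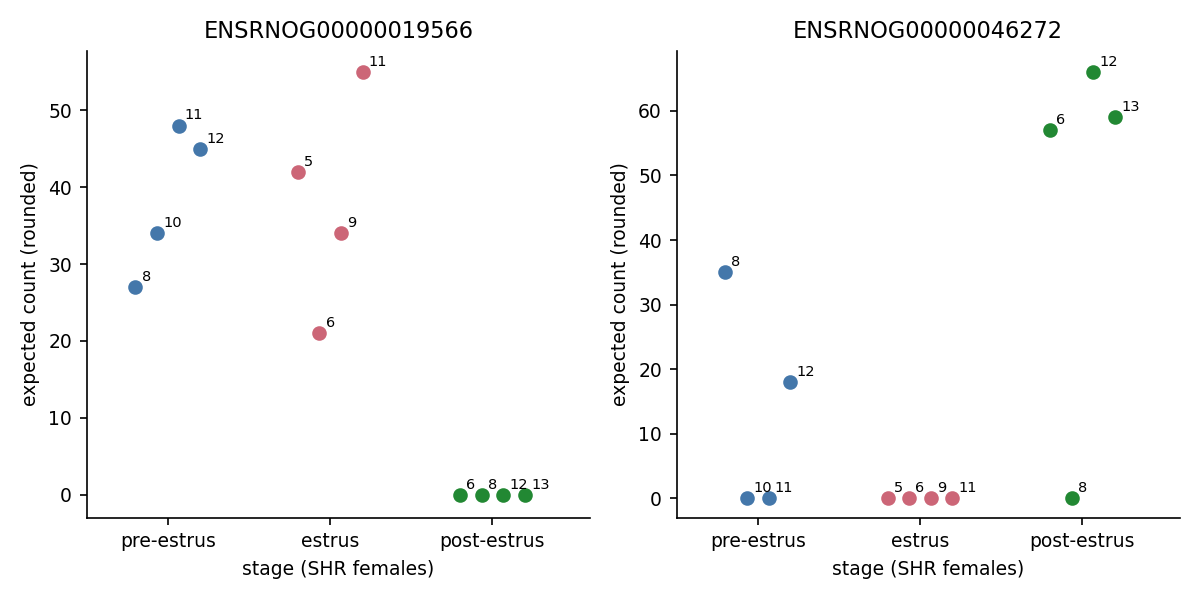
Rounded expected counts (vertical axes) of the 2 genes called between stages, ENSRNOG00000019566 and ENSRNOG00000046272, in each SHR female by stage, with replicate numbers. The first has 21 to 55 counts at pre-estrus and estrus and 0 in all 4 post-estrus libraries, and the second has 57 to 66 counts in 3 post-estrus libraries and 0 in the fourth.

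Both genes belong to a small class with either no count or a moderate number of counts. Taking genes with 0 counts in at least 2 libraries and a median of at least 20 counts in the libraries that had any, 101 of the 16814 genes (0.601%) were of this kind, and both called genes were among them, as were 9 of the 381 genes at an unadjusted p under 0.05. When only genes averaging 1 CPM or more were tested, 0 genes were called with the shares in any of the 4 stage tests by edgeR.

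A further 2 genes of this class had the smallest p among those of at least 1 CPM that were higher at post-estrus than at pre-estrus, without being called (edgeR, adjusted p = 1 for each). Without estrus replicate 5 both were called: ENSRNOG00000046275 (edgeR with the shares, adjusted p = 0.00132) and ENSRNOG00000046594 (0.00234). Each was called in 3 alternatives, of 27 for the former and 28 for the latter. ENSRNOG00000046275 had 0 counts in all 4 pre-estrus libraries, 477, 0, 589 and 0 in estrus replicates 5, 6, 9 and 11, and 748, 114, 0 and 0 in post-estrus replicates 6, 8, 12 and 13. ENSRNOG00000046594 had 485 counts in pre-estrus replicate 12, 378 and 507 in estrus replicates 5 and 9, and 668 in post-estrus replicate 6, and 0 in the other 8 libraries. Within each stage both were present in some animals and at 0 in others, except that ENSRNOG00000046275 was at 0 throughout pre-estrus.

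Of genes that averaged 1 CPM or more, ENSRNOG00000007034 and ENSRNOG00000021919 had the smallest unadjusted p in the higher direction between post-estrus and estrus. ENSRNOG00000007034 was at 33.6, 32.1, 38.0 and 30.6 CPM in estrus replicates 5, 6, 9 and 11 and at 39.9, 42.6, 44.3 and 40.2 CPM in post-estrus replicates 6, 8, 12 and 13. ENSRNOG00000021919 was at 2.49, 2.52, 2.76 and 3.08 CPM at estrus and at 4.06, 3.73, 3.74 and 4.40 CPM at post-estrus. The stages did not overlap for either gene, and the log2 fold changes were 0.34 ± 0.08 and 0.48 ± 0.14 with the shares and 0.32 ± 0.08 and 0.55 ± 0.15 without them (SE; edgeR, adjusted p = 1 with and 0.978 without). These values hardly moved with the adjustment, and neither gene was called for the share of ENSRNOG00000043866. Both genes were picked for their small p, so the lack of overlap between the stages adds no evidence. How many of all genes separate in this way was not counted.

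In the lower direction between the same stages, ENSRNOG00000003883 was at 4.31, 3.32, 7.61 and 2.91 CPM at estrus and at 2.30, 1.09, 0.981 and 1.66 CPM at post-estrus. The groups did not overlap, and the log2 fold change was -1.40 ± 0.35 with the shares and -1.58 ± 0.36 without them (SE; edgeR, adjusted p = 1 and 0.978). DESeq2 with the shares called ENSRNOG00000003883 (adjusted p = 0.0227) but not ENSRNOG00000004268 (0.616). ENSRNOG00000004268 was at 28.3, 24.6, 28.9 and 23.4 CPM at estrus and at 21.0, 22.9, 20.7 and 10.4 CPM at post-estrus. These groups did not overlap either, with post-estrus replicate 13 far below the rest. The log2 fold change was -0.34 ± 0.09 with the shares and -0.49 ± 0.23 without them. These genes too were picked for their small p, so the lack of overlap adds no evidence.

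Lower at post-estrus than at pre-estrus without passing the test were ENSRNOG00000061317 and ENSRNOG00000004090 (edgeR, adjusted p = 1 for each). DESeq2 with the shares called ENSRNOG00000061317 (adjusted p = 0.0173) but not ENSRNOG00000004090 (0.287). ENSRNOG00000061317 was at 6.18, 9.95, 29.1 and 12.6 CPM at pre-estrus and at 10.3, 18.1, 9.80 and 2.04 CPM at post-estrus, with overlapping groups. Its log2 fold change was -0.80 ± 0.17 with the shares and -0.52 ± 0.56 without them (SE), and its coefficient for the share of ENSRNOG00000043866 was 4.31 (edgeR, adjusted p = 0.000291). ENSRNOG00000004090 was at 6.66, 7.33, 5.00 and 5.81 CPM at pre-estrus and at 4.41, 3.30, 4.08 and 6.11 CPM at post-estrus. These groups overlapped through post-estrus replicate 13, and the log2 fold change was -0.52 ± 0.13 with the shares and -0.47 ± 0.19 without them. Of the 12 genes of at least 1 CPM given here for their small p between stages, 5 were called for the share of ENSRNOG00000043866, beside 10.6% of all genes and 15.5% to 34.6% of the genes at an unadjusted p under 0.05 in the 3 pairwise comparisons of the same fit.

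The stage differences of the SHR females were set against those of the 12 BN-Lx females in a model with a term for the difference between strains. None of 17452 genes (0%) was called by edgeR for a stage effect that was unequal in SHR and BN-Lx. Without adjustment, 492 genes (2.82%) had p under 0.05, and the smallest adjusted p was 1. limma also called 0. A fit with a slope of each share for each strain called 0, and a fit with a term for the suffix called 1. Without BN-Lx estrus replicate 2, 1 gene was called. No stage difference was called particular to SHR, which does not show that the strains were alike.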

How the data were processed

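Total RNA of whole brain was sequenced as stranded, ribosome-depleted paired-end libraries, per the labels' protocols. cutadapt and RSEM were used, per the submitters' processing notes. Versions, aligner settings, genome build and annotation were not given in the sources used here. Deposited files hold the authors' expected counts per gene, not normalized, with gene lengths that served here as descriptions. Of the values, 88.2% were whole numbers. The files hold 32623 gene rows and 92 spike-in rows. None of 47357 rows of the reference gene table carries an Ensembl identifier, so the 39 gene lists drawn up (539 entries) matched 0 rows and no sequence was printed.

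Expected counts were rounded, spike-ins were left out, and genes were kept by edgeR's filterByExpr over the 3 stages with a count minimum of 10. TMM scaling and a robust quasi-likelihood fit (edgeR 4.0.16, R 4.3.3) were applied to the 12 SHR females, with and without the centred log2 shares of both RNAs in the gene counts. P-values were adjusted by Benjamini-Hochberg over all genes tested and called under 0.05. Standard errors were derived from F statistics and are approximate. The expected counts give no counting interval of their own. A prior count of 2 entered the log2 CPM behind the principal components. Correlations used 100000 permutations, and share tests were two-sided exact permutations (scipy 1.17.1). The fit was tested on simulated data. limma 3.58.1 and DESeq2 1.42.0 were alternatives.

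Genes named were called genes, genes of at least 1 CPM with the smallest p in each direction, and, among genes called for a share, those of at least 1 CPM with the largest coefficient, at most 2 per direction. The members and lists were chosen with earlier results of these data known. Over the 18 pairs of libraries within stages, chi-square divided by its degrees of freedom lay between 30.8 and 416, so none was a copy of another. The labels call the samples biological replicates, and p-values measure the spread between these samples.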

Additional observations from a re-analysis of the deposited data

Results flagged for a closer look

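Groups of 4 libraries were examined over the genes named above, the shares and the first principal component. In 8 of 66 groups the highest or lowest library lay far from the other 3. The genes were chosen from these same libraries and some had counts of 0, so no rate by chance can be set beside this number. Post-estrus replicate 8 was such a library for 3 genes: ENSRNOG00000047991 at 57.7 CPM against 3.40 to 7.25 in the other post-estrus libraries, ENSRNOG00000053946 at 4.11 CPM against 0.461 to 1.04, and ENSRNOG00000053534 at 4.88 CPM against 0.698 to 1.37. Post-estrus replicate 6 was at 12.4 CPM for ENSRNOG00000046275, where the others were at 0 to 2.05, and at 11.0 CPM for ENSRNOG00000046594, where the others were at 0. ENSRNOG00000046594 was also at 7.72 CPM in pre-estrus replicate 12 and at 0 in the other pre-estrus libraries. ENSRNOG00000048750 was at 13.9 CPM in pre-estrus replicate 11 against 4.71 to 6.13. ENSRNOG00000052925 was at 10.5 CPM in estrus replicate 5 against 18.0 to 18.9.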

How the results depend on the processing

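Counts of genes called with the shares are given in the order any stage, estrus against pre-estrus, post-estrus against estrus, post-estrus against pre-estrus, where edgeR gave 2, 0, 2 and 1. They were 0, 0, 1 and 1 without shares, 1, 0, 1 and 1 with the share of ENSRNOG00000043866 alone, 0, 0, 1 and 1 with that of ENSRNOG00000058083 alone, 4, 0, 2 and 4 with limma, 9, 6, 7 and 9 with DESeq2, 2, 0, 1 and 1 with DESeq2 size factors in edgeR, 1, 0, 1 and 1 with scaling that left out the 8 most abundant genes, 10, 4, 7 and 7 without a filter, 0, 0, 0 and 0 over genes of at least 1 CPM, 0, 0, 0 and 0 with all 28 libraries, 5, 0, 3 and 3 with a suffix term, and 4, 0, 4 and 2 with the description number as a block. The 7 b35 libraries gave 0, 0, 1 and 1 with shares and 0, 0, 0 and 0 without; the 5 b37 libraries, with a lone post-estrus library assumed to vary like the others, gave 64, 23, 9 and 52 without shares. Leaving out single libraries gave 0 to 5, 0 to 2, 0 to 4 and 0 to 5. Without shares, where edgeR gave 0, 0, 1 and 1, limma gave 2, 0, 1 and 3, DESeq2 3, 6, 3 and 5, and no filter 1, 0, 1 and 1, and leaving out single libraries 0 to 0, 0 to 0, 0 to 1 and 0 to 1.

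For the share of ENSRNOG00000043866, 1515 to 1842 genes were called under edgeR alternatives that kept all libraries, 3161 with limma, and 373 to 2396 with a library left out. For that of ENSRNOG00000058083 there were 99 with limma, 4 with DESeq2 size factors, 4 with scaling without the 8 most abundant genes, 21 without a filter, 2 over genes of at least 1 CPM, 10 with a suffix term, and 2 to 20 with a library left out. The stage tests of the 2 shares gave exact permutation p from 0.519 to 0.875 and from 0.233 to 0.939 with a library left out. The strain difference gave 1 gene with a suffix term and 0 to 1 with a library left out. The restriction to 1 CPM and DESeq2 size factors without shares were chosen after seeing the data.

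Replicate numbers recur between stages, but the numbers in the descriptions differ for the same replicate number, and the 4 such pairs had correlations of deviations of -0.455, -0.0938, -0.134 and -0.516, so they were not taken as pairs. A replicate block left no residual degrees of freedom beside the shares. Without shares the block gave 0, 0, 0 and 0 genes, and turned the log2 fold change of ENSRNOG00000061317 to 0.17, of ENSRNOG00000004268 to 0.047 and of ENSRNOG00000046594 to -10.16. In b35 without shares, that of ENSRNOG00000021090 was -0.13, of ENSRNOG00000048750 0.21 and of ENSRNOG00000061317 0.30, and in b37 that of ENSRNOG00000046594 was -10.79; the cause was not tested. Of 524 values of 21 results on single genes, 452 kept direction and side of the threshold, 56 lost and 9 gained the call, and 7 turned.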

Other observations

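The sample descriptions carry a number whose meaning is not stated: 200317 for estrus replicates 5 and 9 and post-estrus replicates 6 and 8, 201066 for the pre-estrus libraries, estrus replicate 6 and post-estrus replicate 13, and 1 library each for 2 further numbers. ENSRNOG00000046275 had 477, 589, 748 and 114 counts in the 4 libraries with 200317 and 0 in the other 8 SHR females. It was the only gene, 1 of 32623 gene rows before any filter, with at least 10 counts in each of those 4 and 0 in the other 8. It was singled out after its values were seen. The SHR males had 178 and 87 counts, and the BN-Lx libraries 0 to 295. With a term for the number beside the stages and shares, edgeR called 11 genes for any difference among the 4 numbers, with 4 residual degrees of freedom. For 200317 against 201066 alone it called 1 gene, ENSRNOG00000006612, with a fitted log2 fold change of -35.23, so ENSRNOG00000046275 was not called for that difference. ENSRNOG00000006612 had 287 counts in post-estrus replicate 8 and 0 in the other libraries with 200317. With 201066 it had 226 counts in pre-estrus replicate 11, 446 in post-estrus replicate 13 and 0 in the rest. Its counts thus overlapped between the numbers and do not by themselves show a lower level. All pre-estrus libraries share 1 number, so the number and the stage are partly tied.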
